A study of Mus musculus with 3 samples.

Results

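The genes of the Wnt ligands (Wnt), their Frizzled receptors (Fzd) and 2 families of secreted inhibitors (Sfrp and Dkk) were read across 3 arrays of whole mouse embryos. Members were all genes whose symbol, reached through the RefSeq accession of the probe, is Wnt, Fzd, Sfrp or Dkk followed by a number. The symbol table held 38 such genes: 19 ligands, 10 receptors, 4 Sfrp genes, 4 Dkk genes and Fzd10os, an RNA from the strand opposite Fzd10. Named probes covered 36 of them, among 16358 genes with a named probe in all; Fzd9 and Fzd10os were not analysed here. Of the 36, 34 stood well above background on 1 array or more, and 33 on all 3.

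Each group was 1 array, hybridised with RNA pooled from 3 whole embryos of mixed background. The groups were embryos null for MafF, MafG and MafK at E10.5 (triple null), embryos null for MafF and MafK with both MafG alleles at E10.5 (MafG+/+ E10.5), and embryos of that second genotype at E9.5 (MafG+/+ E9.5). By these labels every group lacked MafF and MafK, small bZIP proteins that pair with CNC and BACH factors on DNA, and no group had all 3 proteins. With 1 array per group there was no replicate error and nothing was tested, so "higher" and "lower" describe these arrays.

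Wnt proteins are lipid-modified secreted signals. They bind a Frizzled receptor together with the co-receptor Lrp5 or Lrp6 and keep beta-catenin from being destroyed, so that it can act with TCF/LEF factors in the nucleus; other Wnt signals steer cell polarity and movement without beta-catenin. Sfrp proteins carry a Frizzled-like domain and bind Wnt ligands, and most Dkk proteins block the co-receptor. In the embryo of this age the pathway is known for its roles in tail bud growth, the midbrain, neural crest, limb, face and heart.

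Levels are log2 signals minus the 75th percentile of the array, which on the linear scale was 1078 for the triple null, 1420 for MafG+/+ E10.5 and 1064 for MafG+/+ E9.5. A level of 0 is that percentile, and levels were compared between arrays and never between probes. The error beside a log2 difference is the scanner software's own error for the spots, which covers the scan and not the embryos. Mafg itself was not well above background in the triple null pool, and its signal was lower by at least 173-fold compared with MafG+/+ E10.5. The probes of Maff and Mafk were well above background on every array. In triple null, MafG+/+ E10.5 and MafG+/+ E9.5 embryos Maff was at -1.70, -1.65 and -1.56. Mafk was at -3.97, -4.12 and -3.81 in the same order. The loss of MafF and MafK thus rests on the labels, and why these probes gave signal was not tested. The pools also differed in sex: Xist was well above background in the MafG+/+ E10.5 pool alone, and Ddx3y in the other pools and not in that one, so genotype, age and sex cannot be told apart in a difference from that array. The part of sex in the differences below was not tested. In RNA from whole embryos, fewer cells of a type and less RNA per cell cannot be told apart.

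**Figure D1:**
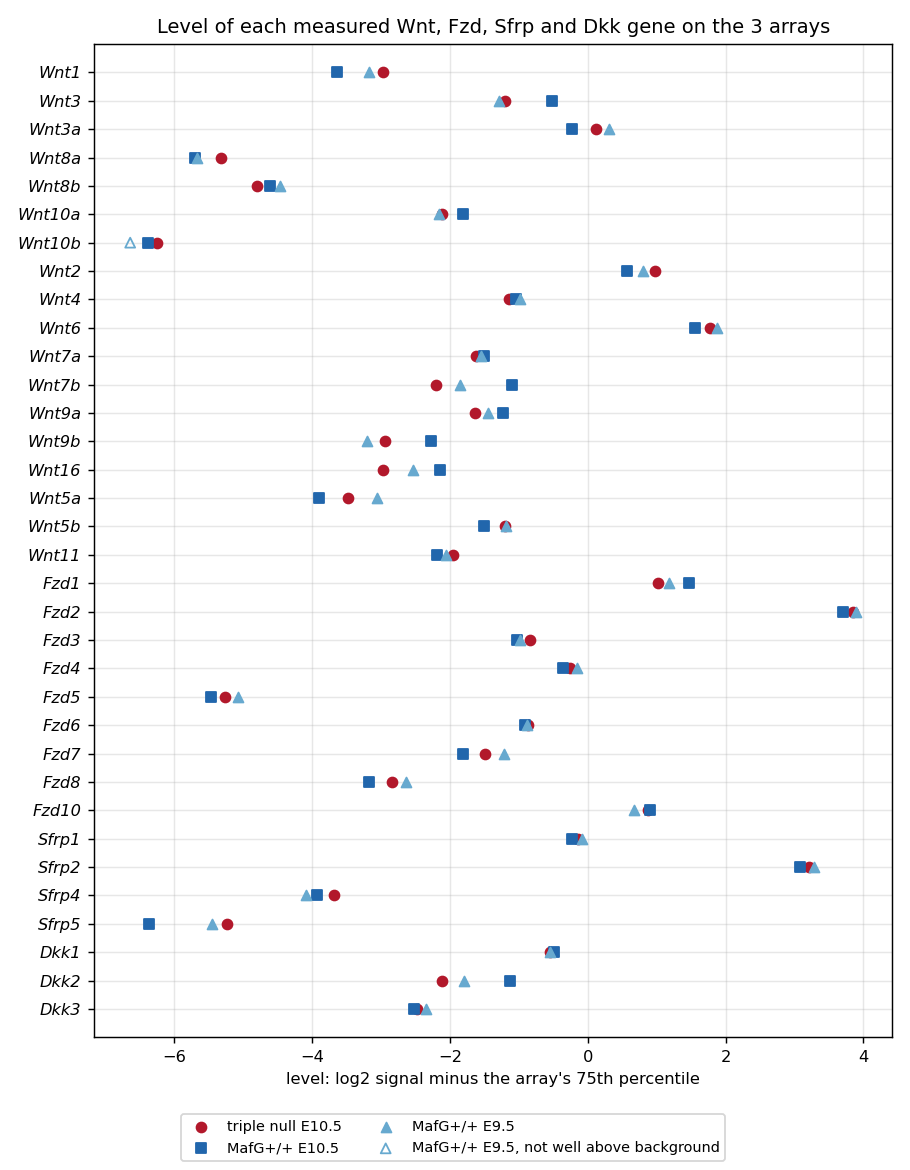
Level of each of the 34 measured genes (log2 signal minus the array's 75th percentile, x axis) on the triple null E10.5, MafG+/+ E10.5 and MafG+/+ E9.5 arrays. Points are single arrays and an open symbol was not well above background. The arrays lie close together for most genes and farthest apart for Sfrp5 and Wnt7b, and levels in different rows come from different probes and do not compare genes.

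The first comparison set the triple null against MafG+/+ embryos, both at E10.5. By their labels both are null for MafF and MafK and they differ in MafG, but the pools also differ in sex. Of 34 members above background on both arrays, Wnt7b was at least 2-fold lower and Sfrp5 at least 2-fold higher in triple null embryos. These 2 members are 5.88% of the 34, near the 5.45% of all 12529 genes with such a gap (0.982% higher and 4.47% lower). The median log2 difference was 0.12 over the members and 0.06 over all genes, and the median absolute difference was 0.27 over the members and 0.21 over all genes. At a threshold of 1.5-fold there were 7 members, or 20.6%, beside 13.8% of all genes (4.12% higher and 9.72% lower): Wnt7b, Dkk2, Wnt16, Wnt3 and Wnt9b on the lower side, and Sfrp5 and Wnt1 on the higher. None was 3-fold apart, beside 2.18% of all genes. With normexp background correction, a model that shrinks dim signals, no member was 2-fold apart and 4 were 1.5-fold apart, namely Dkk2, Sfrp5, Wnt3 and Wnt7b.

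The ligand with the widest gap was Wnt7b, known for roles in the lung, the placenta and the blood vessels of the brain. Its level was -2.20 in triple null, -1.10 in MafG+/+ E10.5 and -1.85 in MafG+/+ E9.5 embryos. The triple null pool was thus the lowest of the 3, with a log2 difference of -1.10 ± 0.20 (2.15-fold lower) from MafG+/+ E10.5. Its close relative Wnt7a, a dorsal signal of the limb ectoderm, lay at -1.62, -1.50 and -1.54 on the same arrays in the same order, and the 3 arrays were nearly level.

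Wnt3, which is needed for gastrulation and later acts in the limb ectoderm, and Wnt9b, a signal of the kidney duct and facial ectoderm, are direct neighbours on chromosome 11. Wnt3 lay at -1.20 in triple null, -0.51 in MafG+/+ E10.5 and -1.28 in MafG+/+ E9.5 embryos. Its 2 probes gave log2 differences of -0.66 and -0.71 between triple null and MafG+/+ at E10.5, 1.61-fold lower on average. Wnt9b lay at -2.94, -2.27 and -3.21 on the same arrays, 1.59-fold lower in triple null than in MafG+/+ embryos at E10.5. For both genes the MafG+/+ E10.5 array was the highest. The other arrays were close to each other for Wnt3, and for Wnt9b triple null was above MafG+/+ E9.5 by a log2 difference of 0.27 ± 0.21.

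The other neighbouring ligand pairs were read in the same way. Wnt3a and Wnt9a, also adjacent on chromosome 11, had log2 differences of 0.35 ± 0.20 and -0.40 ± 0.20 between triple null and MafG+/+ at E10.5. Wnt6, a ligand of the surface ectoderm, and Wnt10a, which acts in teeth and hair, are close together on chromosome 1 and had 0.22 ± 0.20 and -0.30 ± 0.20. Wnt1 and Wnt10b, adjacent on chromosome 15, had 0.67 ± 0.07 and 0.14 ± 0.38, and Wnt10b was dim, at -6.25 in triple null and -6.39 in MafG+/+ E10.5 embryos.

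Wnt1, the signal of the midbrain and hindbrain border and of the dorsal neural tube, had the most precise measurement of the family, since its probe was printed 10 times. Its level was -2.96 ± 0.08 in triple null (SD, 10 spots), -3.63 ± 0.06 in MafG+/+ E10.5 (SD, 10 spots) and -3.17 ± 0.07 in MafG+/+ E9.5 embryos (SD, 8 spots after 2 were marked as outliers). No triple null spot, the lowest of which was at -3.10, overlapped the MafG+/+ E10.5 spots, the highest of which was at -3.50. The spots share 1 RNA pool per array, so they show the precision of the reading and not variation between embryos. Probes printed 10 times with levels from -4 to -2 had a median spot SD of 0.08 in triple null and 0.07 in MafG+/+ E10.5. A gap this wide therefore parts the spots of such a probe, and the lack of overlap adds nothing about embryos. The triple null pool was 1.59-fold higher than MafG+/+ E10.5.

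**Figure D2:**
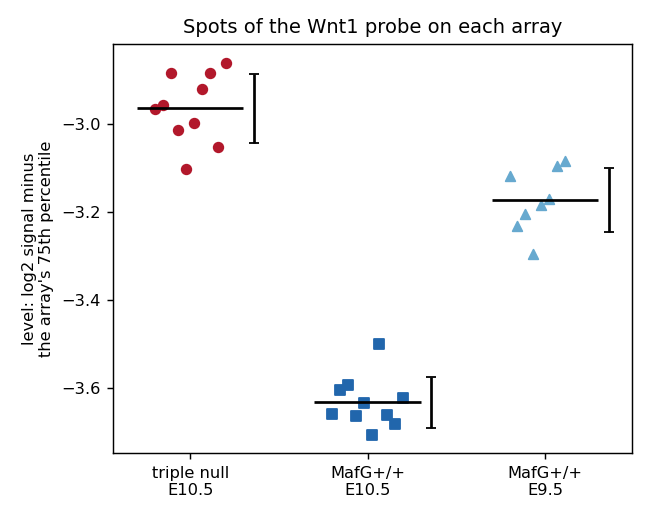
Level of every unflagged spot of the Wnt1 probe (y axis, log2 signal minus the array's 75th percentile) on the triple null E10.5, MafG+/+ E10.5 and MafG+/+ E9.5 arrays. Black lines are means and bars are SDs over 10, 10 and 8 spots of 1 RNA pool each; the triple null spots lie highest, at a mean of -2.96, and the MafG+/+ E10.5 spots lowest, at -3.63.

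Wnt16, which in zebrafish is needed for blood stem cells to form, was the other ligand with a wide gap. It lay at -2.96 in triple null, -2.14 in MafG+/+ E10.5 and -2.53 in MafG+/+ E9.5 embryos. The triple null pool was the lowest, 1.77-fold below MafG+/+ E10.5. Under normexp correction the log2 difference of -0.82 shrank to -0.57.

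The other ligands lay within 1.5-fold at E10.5. Wnt3a, which maintains the tail bud and its paraxial mesoderm, was at 0.12 in triple null and -0.23 in MafG+/+ embryos. Wnt5a, which drives outgrowth of limbs and tail largely without beta-catenin, was at -3.47 in triple null and -3.90 in MafG+/+ embryos, and the related Wnt5b and Wnt11 had log2 differences of 0.29 and 0.23. The value for Wnt11 was about the size of its error of 0.20. Wnt2, a signal of heart and lung mesoderm, had a difference of 0.40, Wnt4, which acts in kidney and ovary, one of -0.11, and Wnt8a, an early primitive streak ligand, one of 0.38 at a dim level of -5.31 in triple null. Wnt8b, a forebrain ligand, had -0.19 and changed sign to 0.08 under normexp. For Wnt9a, the second probe was not above background on any array, and averaging it in would change the difference to 0.30. Wnt2b was not well above background on any array, so no fold was given.

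All 9 measured Frizzled genes lay within 1.5-fold between triple null and MafG+/+ at E10.5, a count near what the 13.8% of all genes past that threshold would give, with log2 differences from -0.45 to 0.33 and a median of 0.14. Fzd1 was at the lower end, at 1.02 in triple null and 1.47 in MafG+/+ embryos. The related Fzd2 and Fzd7 stood on the other side, with Fzd2 at 3.85 in triple null and 3.71 in MafG+/+ embryos, and Fzd7 with 2 probes at 0.25 and 0.39. Fzd8, at 0.33, and its relative Fzd5, at 0.20, were on the same side as Fzd7. Fzd3 and Fzd6, receptors of the polarity branch that act in axon guidance and neural tube closure, had differences of 0.19 and 0.04, Fzd4, which also binds Norrin in vessels, 0.10, and Fzd10 -0.03, with its 2 probes on either side of 0 (-0.12 and 0.06).

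Of the secreted inhibitors, Sfrp5 and Dkk2 stood apart and the others did not. Sfrp5, known from the anterior visceral endoderm and the foregut, lay at -5.24 in triple null, -6.36 in MafG+/+ E10.5 and -5.45 in MafG+/+ E9.5 embryos. The MafG+/+ E10.5 array was the lowest, and the log2 difference of triple null from it was 1.13 ± 0.33, or 2.18-fold higher. The gene was dim on every array, with a linear signal of 28.5 in triple null and 17.2 in MafG+/+ embryos at E10.5, and under normexp the difference was 0.59. Sfrp1 and Sfrp2, which act redundantly in the trunk, had 0.09 and 0.14, and Sfrp4 had 0.25.

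Dkk2, an inhibitor needed in the developing eye, lay at -2.12 in triple null, -1.13 in MafG+/+ E10.5 and -1.79 in MafG+/+ E9.5 embryos. Its log2 difference between triple null and MafG+/+ at E10.5 was -0.98 ± 0.20, just short of 2-fold (1.98-fold lower), and the triple null pool was the lowest of the 3. Dkk1, which is required to form the head, was nearly level, at -0.55 in triple null and -0.49 in MafG+/+ embryos. Dkk3, a divergent member, had a difference of 0.03, and Dkk4 was not well above background on any array.

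**Figure D3:**
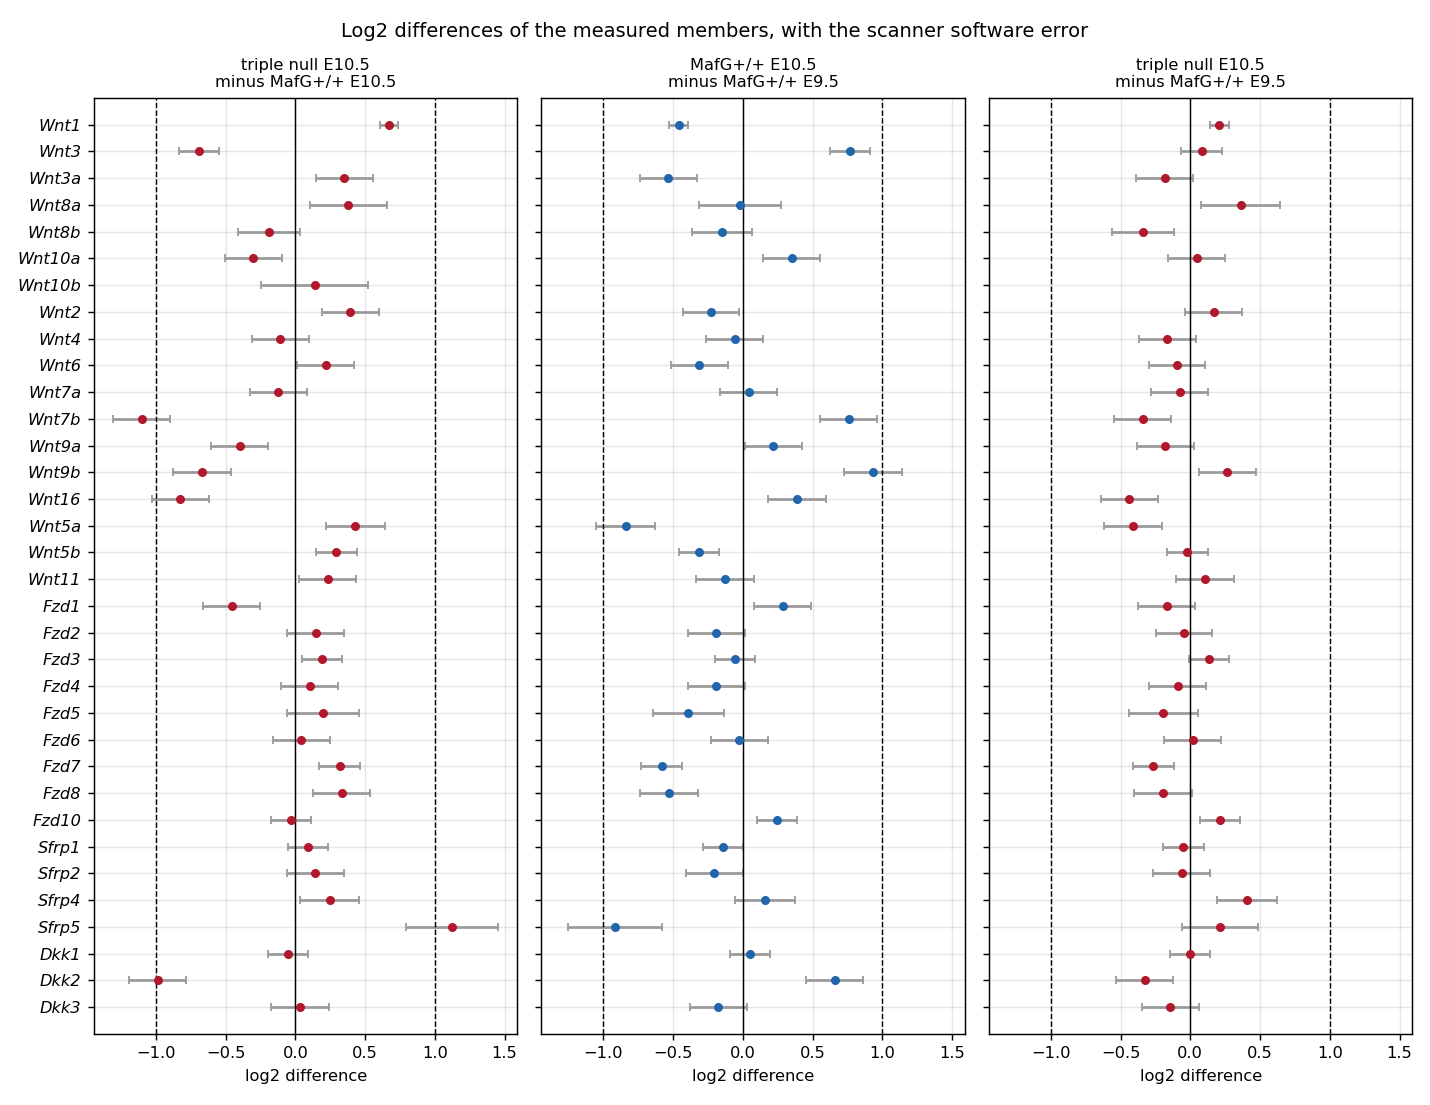
Log2 difference of each measured gene (x axis) in the 3 comparisons, triple null E10.5 minus MafG+/+ E10.5, MafG+/+ E10.5 minus MafG+/+ E9.5, and triple null E10.5 minus MafG+/+ E9.5. Points are differences between single arrays, bars are the scanner software's error, and dashed lines mark 2-fold; Wnt7b (-1.10) and Sfrp5 (1.13) lie beyond them in the first panel and no gene does in the other panels.

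Promoter windows from RefSeq (build GRCm38.p6, 250 bases before to 50 after the start, written 5′ to 3′ on the strand of the gene) were found for 25 of the 38 genes, in 28 windows. They were searched on both strands for TGACNNNGC, an element bound by CNC and small Maf dimers, and for CTTTGAT, the TCF/LEF motif. TGACNNNGC occurred in 6 of the 28 windows, or 21.4%, beside 12.4% of 32851 windows of all genes, and CTTTGAT in 2, or 7.14%, beside 3.73%. The windows of the family were richer in G and C, with a median of 68.7% beside 52.7%. The 4 windows below belong to members at least 1.5-fold apart: the neighbours Wnt3 and Wnt9b, and Wnt16 and Sfrp5. Wnt1 and Dkk2, also at least 1.5-fold apart, had windows with no match to either motif, which are not shown, and Wnt7b had no window in the table. Among these 6 windows, Wnt16 alone held a match, on the opposite strand and starting 59 bases before the start, shown in capitals. A match is a string of letters and no evidence of binding.
Wnt16, chr6:22287977-22288276, plus strand: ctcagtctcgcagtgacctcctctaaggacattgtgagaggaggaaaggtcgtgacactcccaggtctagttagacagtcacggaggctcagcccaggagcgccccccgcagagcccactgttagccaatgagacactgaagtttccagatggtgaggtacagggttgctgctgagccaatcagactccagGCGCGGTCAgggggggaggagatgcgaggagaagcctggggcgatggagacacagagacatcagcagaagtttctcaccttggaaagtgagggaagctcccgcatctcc
Wnt3, chr11:103773925-103774224, plus strand: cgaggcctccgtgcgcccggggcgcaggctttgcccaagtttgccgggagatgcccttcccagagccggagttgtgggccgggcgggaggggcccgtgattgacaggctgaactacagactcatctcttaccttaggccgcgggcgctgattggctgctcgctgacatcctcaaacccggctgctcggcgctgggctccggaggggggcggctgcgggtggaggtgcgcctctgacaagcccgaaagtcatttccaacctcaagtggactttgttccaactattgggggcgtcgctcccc
Wnt9b, chr11:103749772-103750071, minus strand: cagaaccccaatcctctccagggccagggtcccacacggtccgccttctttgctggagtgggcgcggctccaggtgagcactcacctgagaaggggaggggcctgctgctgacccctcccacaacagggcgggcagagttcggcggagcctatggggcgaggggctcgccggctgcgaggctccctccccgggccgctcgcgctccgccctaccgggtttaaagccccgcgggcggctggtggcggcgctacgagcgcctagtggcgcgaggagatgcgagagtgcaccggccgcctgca
Sfrp5, chr19:42202203-42202502, minus strand: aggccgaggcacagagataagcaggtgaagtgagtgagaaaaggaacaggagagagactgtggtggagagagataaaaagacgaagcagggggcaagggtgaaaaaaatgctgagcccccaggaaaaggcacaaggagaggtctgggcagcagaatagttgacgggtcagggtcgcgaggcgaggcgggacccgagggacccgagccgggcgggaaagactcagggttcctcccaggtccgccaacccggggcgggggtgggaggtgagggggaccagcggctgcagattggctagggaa

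Besides Wnt16, the matches to TGACNNNGC were in windows of Wnt2b, Wnt5b, Wnt11, Fzd5 and Fzd9. Wnt5b, Wnt11 and Fzd5 had log2 differences of 0.29, 0.23 and 0.20 between triple null and MafG+/+ at E10.5, all on the opposite side to Wnt16, while Wnt2b was below background and Fzd9 was not analysed here. The CTTTGAT matches were in windows of Wnt5b and Wnt11.

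The second comparison, MafG+/+ E10.5 against MafG+/+ E9.5, follows 1 day of development within a genotype and shares the MafG+/+ E10.5 array with the first. No member of 33 was at least 2-fold apart, beside 5.19% of 12514 genes (4.12% higher and 1.07% lower at E10.5), and none 3-fold apart, beside 1.93%. At 1.5-fold, Wnt9b, Wnt3, Wnt7b and Dkk2 were higher at E10.5 and Sfrp5 and Wnt5a lower, 6 members or 18.2%, beside 13.6% of all genes (9.26% higher and 4.33% lower); under normexp there were 4. The members' median log2 difference was -0.13 and that of all genes -0.05.

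The largest differences on the higher side belonged to the chromosome 11 neighbours, Wnt9b at 0.93 ± 0.21 (1.91-fold) and Wnt3 at 0.77 ± 0.14 (1.70-fold, probes at 0.81 and 0.73). Wnt7b was 1.69-fold and Dkk2 1.58-fold higher at E10.5. On the lower side, Wnt5a was at -3.90 at E10.5 and -3.06 at E9.5, 1.79-fold lower. Sfrp5 had a log2 difference of -0.92 ± 0.34, which was -0.53 under normexp. The tail bud ligand Wnt3a was at -0.23 at E10.5 and 0.30 at E9.5, and the receptor genes Fzd7 and Fzd8 had differences of -0.58 and -0.53. All these ligands and receptors of the lower side stood within 2-fold of their E9.5 level. The 9 Frizzled genes ranged from -0.58 to 0.29 with a median of -0.19, and Dkk1 and Sfrp2 had differences of 0.05 and -0.20. Wnt10b was not well above background at E9.5. Its signal was 1.19-fold higher at E10.5, at -6.39 beside -6.64, with scanner errors of 0.27 and 0.34, so no rise is claimed.

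Finally, triple null embryos of E10.5 were set beside MafG+/+ embryos a day younger, which differ in both genotype and stage and share an array with each comparison above. None of 33 members was 1.5-fold apart, beside 3.03% of 12521 genes at 1.5-fold, 0.783% at 2-fold and 0.224% at 3-fold. The members ranged from -0.44 for Wnt16 to 0.41 for Sfrp4, with a median of -0.06 and a median absolute difference of 0.17, beside 0.01 and 0.09 for all genes. Wnt7b and Dkk2 were below their E9.5 level, at -0.34 ± 0.20 and -0.33 ± 0.20, while Wnt3 and Wnt9b were above it, at 0.08 ± 0.14 and 0.27 ± 0.21. The signal of Wnt10b, not well above background at E9.5, was 1.31-fold higher in triple null embryos. Its levels were -6.25 and -6.64, with scanner errors of 0.27 and 0.34, so no rise is claimed. Wnt5a had -0.41 ± 0.21 and Wnt1 0.21 ± 0.07.

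Other genes of the pathway were read from lists by role. With 5.45% of all genes at least 2-fold apart between triple null and MafG+/+ at E10.5, lists this short would hold about 1 such gene or none at the share of all genes, so counts of 0 or 1 are not a result about them. In the list of beta-catenin and the complex that destroys it, none of 15 genes on both arrays was 2-fold apart, with a range from -0.37 to 0.33 and Ctnnb1, the beta-catenin gene, at 0.14. Nor was any of 12 genes of the nuclear partner list, where the factor genes Tcf7 (0.68) and Lef1 (0.52) were highest and the corepressor gene Tle2 (-0.65) lowest. Among co-receptor and receptor turnover genes none of 11 was 2-fold apart, with Lrp5 at 0.81, Ptk7 at 0.73 and Lrp6 at 0.45 on the higher side and Kremen2, a Dkk receptor gene, at -0.63. Among secreted regulators none of 16 was 2-fold apart. The Wnt-binding inhibitor gene Wif1 (-0.86) and the agonist gene Rspo2 (-0.80) were lowest and Cer1, an inhibitor of Nodal and BMP signals, was highest (0.79). In the planar cell polarity list 1 of 9 genes was 2-fold apart, the cadherin gene Celsr3, at -1.19 (probes at -1.53 and -0.85). It was dim in triple null embryos, at -5.05.

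Known transcriptional targets and feedback genes included several that were far apart. Of 16 on both arrays, 5 were at least 2-fold higher and none 2-fold lower in the triple null pool, beside 0.982% of all genes at least 2-fold higher. The list was drawn up with earlier results of these data known and includes tail bud factor genes. Its count is therefore no measure of Wnt targets as a group. The 5 were factor genes of the tail bud and presomitic mesoderm: Cdx4 at 3.42, Cdx2 at 3.27, Msgn1 at 2.32, Tbx6 at 1.68 and T at 1.37. Cdx4 and Msgn1 were dim in MafG+/+ E10.5 embryos, at -6.56 and -6.20, so the size of their differences is limited by signal over background. Cdx1 was below background in MafG+/+ embryos at E10.5, and in triple null embryos it was higher by at least 4.66-fold. The other genes of the list on both arrays lay between -0.34 and 0.75. Sp5 was at 0.75, Myc at 0.54, Lef1 at 0.52 and Dact1 at 0.18. Ccnd1 was at -0.04, Axin2 at -0.07, Nkd2 at -0.12, Nkd1 at -0.13, Rnf43 at -0.14, Notum at -0.20 and Lgr5 at -0.34. The ligand Wnt3a, which acts upstream of this group in the tail bud, was at 0.35.

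The same 5 genes were at least 2-fold lower at E10.5 than at E9.5 in MafG+/+ embryos, from -3.58 for Cdx4 to -1.46 for T, with Axin2 at -0.07. The dim MafG+/+ E10.5 signals of Cdx4 and Msgn1 enter these differences too. Between triple null and MafG+/+ E9.5 none of 17 targets was 2-fold apart, and the range was from -0.46 to 0.29. Elsewhere in the pathway, Ptk7, a co-receptor of the polarity branch, was at least 2-fold lower at E10.5 than at E9.5 in MafG+/+ embryos (-1.32) and Celsr3 higher (1.45).

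**Figure D4:**
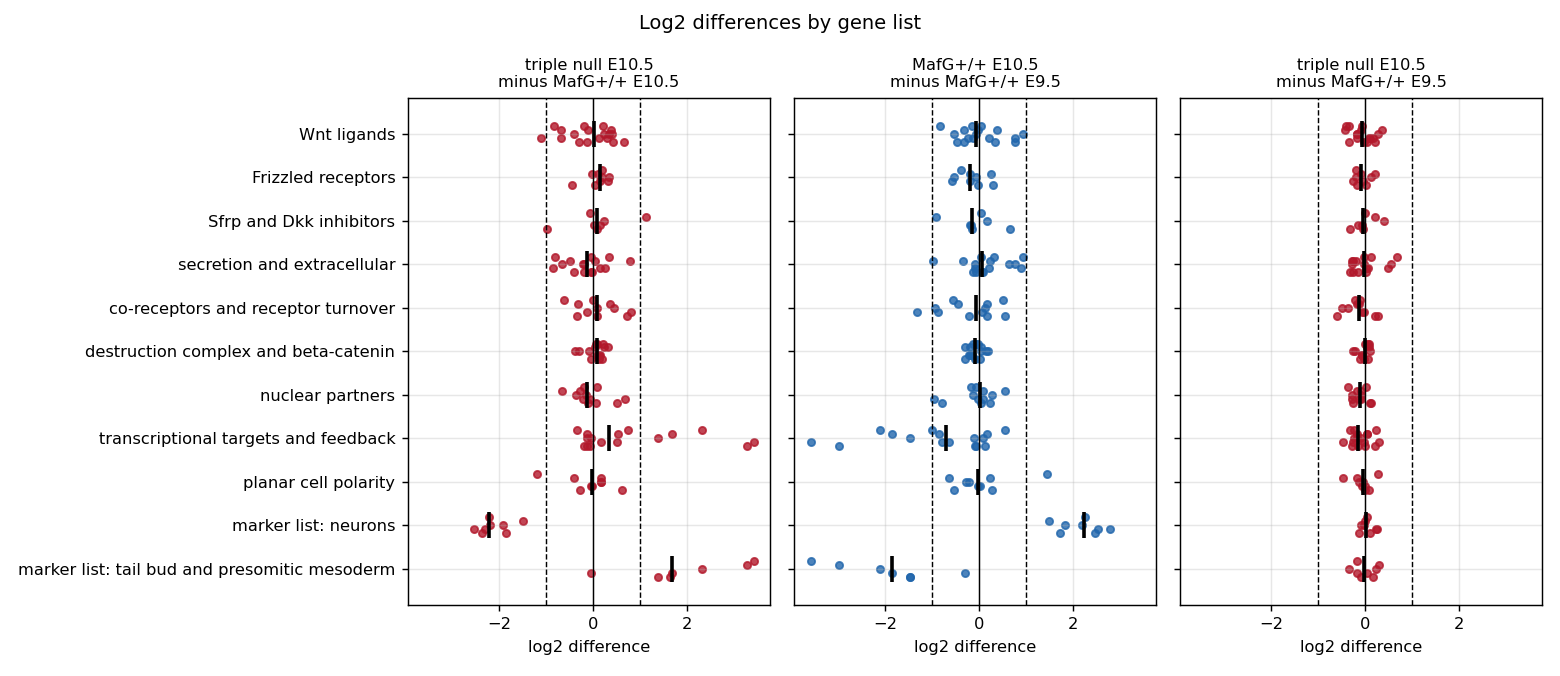
Log2 differences (x axis) of the Wnt ligands, Frizzled receptors, Sfrp and Dkk inhibitors, 6 other pathway lists and 2 tissue marker lists in the 3 comparisons. Points are genes above background on both arrays, black bars are list medians and dashed lines mark 2-fold; the ligands and receptors lie mostly within them, the neuron markers lie below -1 and the tail bud markers mostly above 1 in the first panel, and no list leaves the lines in the last panel.

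Markers of several tissues differed along with these groups. The marker lists were drawn up with earlier results of these data known, so their counts are no measure of the tissues as a whole. Beside them, 0.982% of all genes were at least 2-fold higher and 4.47% lower in triple null than in MafG+/+ embryos at E10.5. A summed signal adds probes of different brightness, so the brightest genes of a list weigh most. All 8 neuron markers were at least 2-fold lower in triple null than in MafG+/+ embryos at E10.5 (median -2.21), and their summed signal was 972% of the 75th percentile in triple null, 3985% in MafG+/+ E10.5 and 991% in MafG+/+ E9.5 embryos. Of 7 tail bud markers on both arrays, 6 were at least 2-fold higher (median 1.68). The summed signal of all 8 in the list was 460.3% in triple null, 240.5% in MafG+/+ E10.5 and 513% in MafG+/+ E9.5 embryos. Hes7 was not above background at MafG+/+ E10.5. The marker that was not 2-fold apart, Fgf8 (-0.05), was the brightest in MafG+/+ E10.5 embryos, at 0.66. It weighs most in the MafG+/+ E10.5 sum of that list. T, Tbx6, Msgn1, Cdx2 and Cdx4 stand in both that list and the list of targets, so these 2 counts share most of their genes. None of 6 neural progenitor markers was 2-fold apart (median 0.02). Of 6 heart markers 3 were at least 2-fold higher (median 0.93). These were Myl7 at 1.03, Actc1 at 1.01 and Nkx2-5 at 1.01, all so near 2-fold that the count depends on the scaling. Of 6 blood markers 4 were at least 2-fold lower (median -1.05). Their list had a summed signal of 12581% in triple null, 26139.9% in MafG+/+ E10.5 and 14417% in MafG+/+ E9.5 embryos. The globin genes Hbb-y and Hba-x were the brightest and weigh most in these sums. Platelet markers had a median of -2.93 over 3 genes, 2 of them at least 2-fold lower, and the summed signal of all 4 in the list was 54.5% in triple null, 433% in MafG+/+ E10.5 and 127% in MafG+/+ E9.5 embryos, with Ppbp below background in triple null. The macrophage marker on both arrays, Tyrobp, was at -3.59, with Cx3cr1 and Ptprc below background in triple null and MafG+/+ E9.5 embryos. Tyrobp, the platelet marker Gp9 and the liver marker Ttr were dim in triple null embryos, at -6.13, -5.37 and -6.28. The size of their differences is limited by signal over background. Of 6 liver markers 3 were at least 2-fold lower and 1 higher (median -0.75).

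Yolk sac endoderm markers differed mainly from the E9.5 array. Among 5 measured genes, 4 were at least 2-fold lower in MafG+/+ E10.5 than in MafG+/+ E9.5 embryos (median -1.89), beside 1.07% of all genes. In triple null embryos 4 were at least 2-fold lower than in MafG+/+ E9.5 embryos (median -2.04), beside 66 of all 12521 genes. The summed signal of these markers was 406% in triple null, 448% in MafG+/+ E10.5 and 854% in MafG+/+ E9.5 embryos. Rbp4 was the brightest of them on every array and weighs most in the sums. Between triple null and MafG+/+ at E10.5, 1 of 5 was 2-fold lower (median -0.18). The part of these tissues in the differences of the ligands and inhibitors was not tested.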

How the data were processed

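Per the labels, each array of the 1-colour Agilent platform received Cy3-labelled RNA of 1 embryo pool, with 1 array per group. The deposited files are scanner output (Agilent Feature Extraction, version 9.5.3.1; protocol GE1-v5_95_Feb07) on design 014868, whose annotation uses build mm7. Per the file headers, its processed signal is a linear intensity from which the software had taken off background. A further table deposited by the authors holds that intensity, rounded (largest difference 0.497%). All arrays were on slide 1.

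The log2 intensity minus the array's 75th percentile over 43379 non-control spots was averaged over the spots of a probe, without spots marked as outliers (59 in triple null, 52 in MafG+/+ E10.5 and 83 in MafG+/+ E9.5). Of 41174 probes, 22951 had a symbol through RefSeq accessions (GRCm38.p6, used for names, chromosomes and gene order). Each gene is the mean of its probes that any array read well above background, which gave 13184 genes. Where only 1 array of a pair read a gene above background, the fold is against a stand-in for the dim array. That is the higher of the gene's own signal there and the lowest signal well above background. Against the lowest such signal the fold is a bound. Against the gene's own signal, as for Wnt10b, it is the measured ratio. The steps were tested on simulated data.

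Members and lists were chosen with earlier results of these data known. Named genes were all members, and from the other pathway lists the genes at least 2-fold apart or, without any, those farthest apart; further list genes were named after their values were seen. Alternatives were normexp (offset 50, on the median spot intensity), scaling by quantiles or by the median of detected genes, other probe filters, the brightest probe, other fold thresholds and the deposited table. The number of arrays limits the precision. Python 3.11.15 and R 4.3.3 with limma 3.58.1 were used.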

Additional observations from a re-analysis of the deposited data

How the results depend on the processing

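The number of members at least 2-fold apart between triple null and MafG+/+ at E10.5 was 2, 0 with normexp, 7 at a threshold of 1.5-fold and 0 at 3-fold, and it stayed at 2 under the other 6 settings. Between MafG+/+ E10.5 and E9.5 it was 0, 6 at 1.5-fold and 1 with quantile normalization, where Sfrp5 passed 2-fold on the lower side. Between triple null and MafG+/+ E9.5 it was 0 under all settings and thresholds tried. The median level of the members with normexp was -1.46 in triple null, -1.17 in MafG+/+ E10.5 and -1.37 in MafG+/+ E9.5 embryos, beside -1.62, -1.36 and -1.49. Median differences moved by less than the spread between spots. Differences of single members that moved by more than the scanner software's error numbered 9 of 100 with normexp, 4 of 100 with the brightest probe, 3 of 100 with no filter on dim probes and 0 under the other 4 settings. Every member difference of at least 1.5-fold kept its sign in all 7 settings. No paired analysis was possible because each group is 1 array, and for the same reason no array could be left out. Dim members such as Sfrp5, Wnt8a and Wnt10b are limited by signal over background.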

Other observations

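Neural crest, limb bud, surface ectoderm, and somite and muscle markers were also read between triple null and MafG+/+ at E10.5. Of all genes, 5.45% were at least 2-fold apart there. These lists too were drawn up with earlier results of these data known, so they are not ranked against the neuron and tail bud lists. Of 5 somite and muscle genes on both arrays, 1 was at least 2-fold lower, Myog at -1.03, while Meox1 was at 0.74. Myod1, below background in triple null embryos, was lower there by at least 3.59-fold. Of 5 measured neural crest genes none was 2-fold apart, with a median of 0.17. Of 8 limb bud genes 1 was 2-fold lower, Lhx9 at -1.34, and the limb factor gene Lhx2 was at -0.90 and Tbx5 at 0.65. Surface ectoderm genes did not run one way: the keratin genes Krt8, Krt18 and Krt19 were at 0.80, 0.75 and 0.82, while Trp63, the factor of stratified epithelium, was at -0.82 (probes at -1.44 and -0.19) and Tfap2c at -0.44, and none of 7 was 2-fold apart.

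Probes of a member mostly ran the same way. Of the members with 2 probes, both above background, Fzd7 had 0.25 and 0.39 and Wnt5b 0.14 and 0.44 between triple null and MafG+/+ at E10.5. The probes of Dkk1 (0.03 and -0.13) and of Fzd10 (0.06 and -0.12) lay on either side of 0.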
